A study of Homo sapiens with 4 samples.

Results

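Adenosine is a purine nucleoside that acts outside cells as a signal and inside them as a building block of nucleotides. Outside the cell ATP is cut down to adenosine by ecto-enzymes, and adenosine then acts on G protein-coupled receptors of the A1, A2A, A2B and A3 types. A1 and A3 couple mainly to Gi/o proteins and lower cyclic AMP, whereas A2A and A2B couple to Gs and raise it, and A2B can also act through Gq. Adenosine is taken up by nucleoside transporters and is then deaminated to inosine or phosphorylated back to AMP.

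HEK293 is a line of human embryonic kidney cells transformed with adenovirus DNA, and receptor pharmacology commonly uses it as a host for cloned receptors, adenosine receptors among them. The message measured here came from 4 separately cultured and extracted plates of untreated cells in growth medium with serum, 1 array for each. All arrays belonged to 1 group, so the question was which messages of adenosine signalling the cells hold, and no condition was compared with another. The 9 genes chosen by name were the receptors ADORA1, ADORA2A, ADORA2B and ADORA3, the ecto-enzymes ENTPD1 (CD39) and NT5E (CD73), the transporter SLC29A1 (ENT1), and the intracellular enzymes ADA (adenosine deaminase) and ADK (adenosine kinase). Of these, 8 were matched by RefSeq accession to a target on the array, among 17214 named genes in all. Targets were named through the accessions of the present RefSeq table, and those under other accessions were left unnamed. None of the matched accessions belonged to SLC29A1, so it was not analysed here.

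Each matched gene was measured by 3 probes of 1 target, and its level was log2 of their mean signal. A distance is that level minus the baseline of the same array, which the study set at the mean plus 2 SD of seminal protein genes thought to be silent in this line. A gene with a mean distance above 0 over the 4 arrays counts as detected. In log2 units the baseline was 9.47, 9.94, 10.69 and 10.32 on replicates 1 to 4 in that order. Between pairs of arrays Pearson's r across genes was 0.949 to 0.977. All 5 markers fixed for HEK293 (VIM, NEFL, NEFM, KRT8, KRT18) were detected. NEFM differed sharply between arrays, at distances of 4.10 and 2.40 on replicates 1 and 3 and of -1.62 and -2.24 on replicates 2 and 4. None of 5 leukocyte markers was detected, with mean distances from -3.56 to -2.22. Of 4 endothelial markers 1 was detected, KDR at 0.30 ± 0.85 (SD, n = 4), and the others lay from -3.50 to -3.17.

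Of the 8 matched genes 4 were detected: ADK, ADA, ADORA2B and ADORA2A. Among all named genes 52.7% were detected by the same rule. Of the 4, only ADK and ADA passed the baseline on every array, as did 45.0% of all named genes. The same pair passed a one-sided limma test of the distances against 0 at an adjusted p under 0.05, which 45.9% of all named genes passed. The shares of the 8 genes, at 4 of 8 and 2 of 8, were therefore not above those of the array as a whole. Their median distance was -0.43 log2 units, against 0.26 over all named genes. RNA from a whole plate cannot tell apart message in few cells from little message in every cell. Each probe has its own affinity, so distances of different genes are not set against each other as amounts of transcript.

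**Figure D1:**
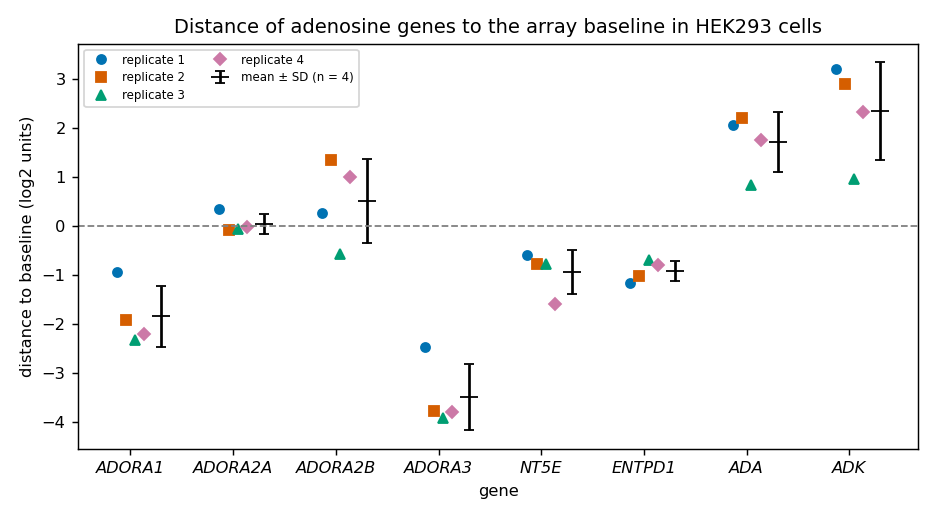
Distance to the baseline (y axis, log2 units) of the 8 matched genes (x axis) on each of the 4 replicate arrays (coloured symbols), with the mean and SD over the arrays in black. ADA and ADK lie above 0 on all 4 arrays, ADORA2A and ADORA2B straddle 0, and ADORA1, ADORA3, NT5E and ENTPD1 lie below 0 on all 4.

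The A2B receptor, encoded by ADORA2B, is regarded as the low-affinity adenosine receptor. Its levels were 9.74, 11.29, 10.13 and 11.32 log2 units on replicates 1 to 4. The distances were 0.27, 1.36, -0.56 and 1.00, with a mean of 0.52 ± 0.85 log2 units (SD, n = 4). Replicates 2 and 4 were high and replicates 1 and 3 low, and replicate 3 fell under the baseline. The distance was within its spread between arrays, and the limma adjusted p was 0.149. The SD of the level, 0.81 log2 units, was larger than the median SD of 0.42 over all named genes. Without replicate 3 the distance rose to 0.87 with a limma adjusted p of 0.022, and without replicate 2 it was 0.24 with an adjusted p of 0.592.

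All 3 ADORA2B probes read higher on replicates 2 and 4 than on replicates 1 and 3. The probe numbered 1159 in its name lay above the baseline on each of the 4 arrays, between 10.67 and 12.10 log2 units. Probe 1442 read 9.63, 11.12, 7.95 and 11.00 on replicates 1 to 4 and was under the baseline on replicate 3. Probe 628 read 7.14, 9.84, 8.28 and 10.29 and lay under the baseline on every array. With the highest probe of every target left out, an alternative chosen after the values had been seen, the gene's mean distance was 0.05 (limma adjusted p = 0.903). A level on both replicates 2 and 4 above the levels on both replicates 1 and 3 was also found for ADA, and for 18.5% of all named genes, so 2 of 8 genes here is near the share of the array. NEFM was instead low on replicates 2 and 4, and its part in these differences was not tested.

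The A2A receptor, encoded by ADORA2A, is the striatal and immune cell receptor through which caffeine is thought to act on wakefulness. Its levels were 9.82, 9.86, 10.63 and 10.31 log2 units on replicates 1 to 4. The distances were 0.35, -0.08, -0.06 and -0.01. Their mean of 0.05 ± 0.20 log2 units (SD, n = 4) was above 0 through replicate 1 alone, and the limma adjusted p was 0.848. Without replicate 1 the mean distance was -0.05. ADORA2A thus lay on the baseline, within a fraction of the spread between arrays. The control genes AFG2A (SPATA5 in the study's list) and SPATA13, which raise the baseline, had mean distances of -0.13 and -0.38 log2 units. Their mean levels were 9.97 and 9.72, while the other matched control genes had mean levels from 6.53 to 7.25. Without these 2 controls the mean baseline was 7.78 log2 units in place of 10.10. ADORA2A then stood at 2.38 (limma adjusted p = 4.55e-11), and 74.0% of all named genes were detected. A place on the study's baseline is therefore not a place at the level of most control genes.

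The probes of ADORA2A were far apart. Probe 1136 lay above the baseline on each of the 4 arrays, from 10.58 to 11.41 log2 units. Probe 1562 lay above it on 3 of 4 arrays, and probe 2255 lay 2.48 ± 0.37 log2 units (SD, n = 4) under it. When the log2 values of the probes were averaged, which gives the brightest probe less weight, the distance of the gene became -0.17.

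The A1 receptor gene ADORA1 and the A3 receptor gene ADORA3 encode the Gi/o-coupled members of the family. ADORA1 had levels of 8.53, 8.03, 8.37 and 8.13 log2 units on replicates 1 to 4, with a mean distance of -1.84 ± 0.63 (SD, n = 4). It was under the baseline on every array. Of its probes, only probe 2484 passed the baseline, on replicate 1, where it read 9.79. ADORA3 had levels of 6.997, 6.18, 6.77 and 6.53, with a mean distance of -3.49 ± 0.68 (SD, n = 4). All 3 of its probes lay under the baseline on all 4 arrays, and their means differed by 0.37 log2 units, against a median of 1.48 for the named targets of 3 probes.

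**Figure D2:**
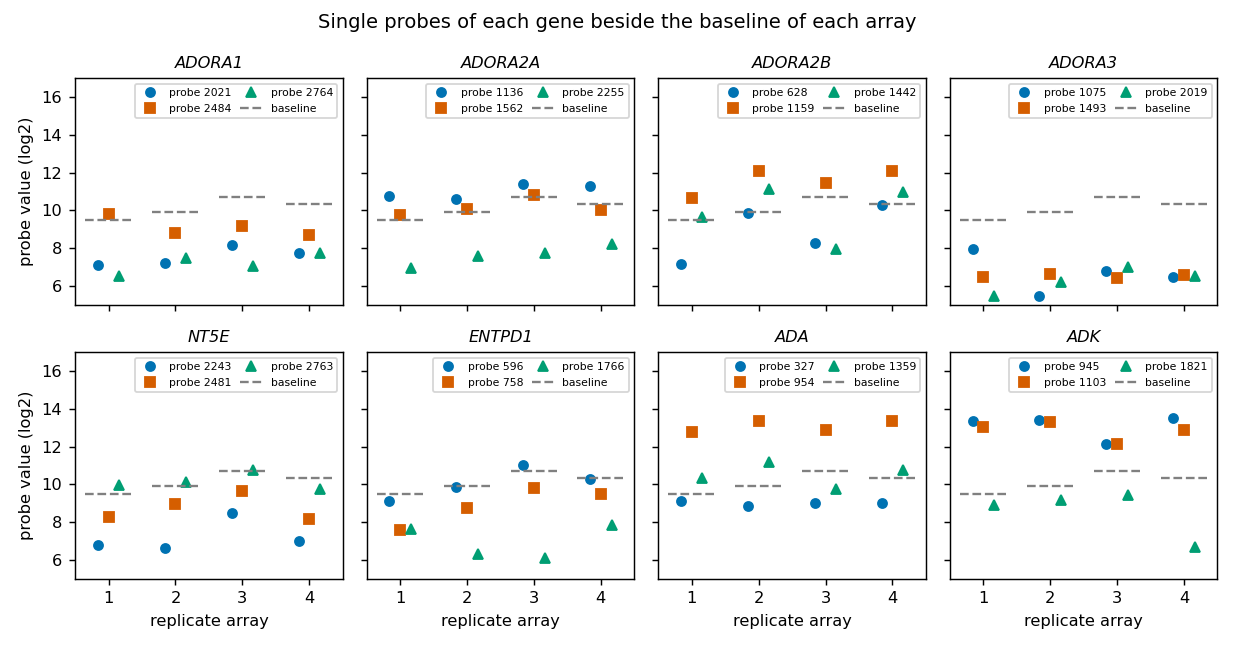
Value of each probe (y axis, log2) on the 4 replicate arrays (x axis), with 1 panel per gene and the baseline of each array as a dashed line. The 3 probes of ADORA3 lie together far below the baseline, whereas every other gene has at least 1 probe at or above it on some array and another below it on all 4.

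ENTPD1 and NT5E work in sequence at the cell surface. ENTPD1 cuts ATP and ADP to AMP, and NT5E takes the phosphate from AMP to give adenosine. ENTPD1 had levels of 8.31, 8.92, 10.00 and 9.54 log2 units on replicates 1 to 4, and distances of -1.16, -1.02, -0.69 and -0.79. The mean was -0.91 ± 0.21 log2 units (SD, n = 4), below the baseline on every array by more than the spread. NT5E had levels of 8.88, 9.16, 9.92 and 8.73, and distances of -0.59, -0.78, -0.77 and -1.59. Its mean was -0.93 ± 0.45 log2 units (SD, n = 4), also below on every array. Neither was detected. Each had 1 probe that reached the baseline: probe 596 of ENTPD1 at -0.01 ± 0.28 and probe 2763 of NT5E at 0.05 ± 0.45 log2 units (SD, n = 4 for each). The 2 other probes of each gene were under the baseline on all 4 arrays.

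ADK phosphorylates adenosine to AMP, and ADA turns adenosine into inosine. ADK had levels of 12.68, 12.83, 11.66 and 12.66 log2 units on replicates 1 to 4. Its distances were 3.21, 2.89, 0.97 and 2.34, with a mean of 2.35 ± 0.99 log2 units (SD, n = 4, limma adjusted p = 4.3e-11). Replicate 3 was the lowest before and after subtraction. Probes 945 and 1103 of ADK lay above the baseline on all 4 arrays, at mean levels of 13.12 and 12.84, while probe 1821 was under it on all 4 with a mean of 8.54.

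ADA had levels of 11.54, 12.14, 11.54 and 12.08 log2 units. Its distances were 2.07, 2.20, 0.85 and 1.76, with a mean of 1.72 ± 0.61 log2 units (SD, n = 4, limma adjusted p = 1.47e-06). The signal came mainly from probe 954, at a mean level of 13.11. Probe 1359 passed the baseline on 3 of 4 arrays and probe 327 on none. With the median of the log2 probe values ADA stood at 0.56 (limma adjusted p = 0.161). Without the highest probe of every target it stood at 0.47 (limma adjusted p = 0.234). The direction of ADA and ADK held in all alternatives run, while the test of ADA did not, also with a baseline of 3 SD, where it stood at 0.40 (limma adjusted p = 0.43). ADK passed the test in each alternative, with adjusted p-values from 1.55e-33 to 0.0131.

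As a further background, the levels were set beside 364 olfactory receptor genes, a family that outside the nose is mostly silent. Their mean levels had a median of 6.68 log2 units and a highest value of 10.25, and 1 of them was detected. Of the 364, 218 lay at or above ADORA3, 6 at or above ADORA1, 3 at or above each of NT5E and ENTPD1, and 1 at or above ADORA2A. None lay at or above ADORA2B, ADA or ADK. ADORA3 was 0.08 ± 0.45 log2 units below the median of the olfactory genes on the same array (SD, n = 4), a difference within the spread. NT5E and ENTPD1 were 2.48 ± 0.50 and 2.49 ± 0.43 log2 units above that median, and ADORA1 was 1.57 ± 0.44 above it (SD, n = 4 for each).

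**Figure D3:**
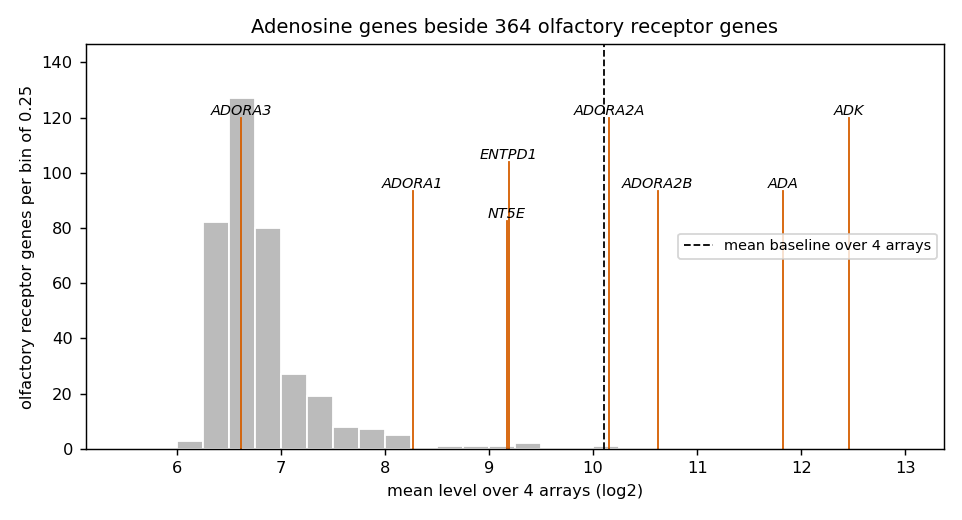
Number of olfactory receptor genes (grey bars, y axis) by mean level over the 4 arrays (x axis, log2), with the 8 adenosine genes as labelled vertical lines whose height carries no value and the mean baseline as a dashed line. ADORA3 lies in the bulk of the olfactory genes, ADORA1, NT5E and ENTPD1 between that bulk and the baseline, and ADA and ADK beyond both.

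The height of the baseline decided the calls between these extremes. With the olfactory genes as controls the mean baseline was 8.02 log2 units in place of 10.10, and 7 of the 8 genes were detected, as were 71.4% of all named genes. The limma test then called 6 of the 8 and 66.3% of all named genes, so the lower baseline raised the calls over the whole array. Under it NT5E stood at 1.15 and ENTPD1 at 1.17 (limma adjusted p = 0.000149 and 0.000142). ADORA1 stood at 0.25 without passing the test (limma adjusted p = 0.254). ADORA2A and ADORA2B stood at 2.13 and 2.60 log2 units. Of the 6 rules for the baseline, 3 SD alone put both below 0. ADORA3 was below the baseline under every alternative run, with mean distances from -4.80 to -1.16.

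**Figure D4:**
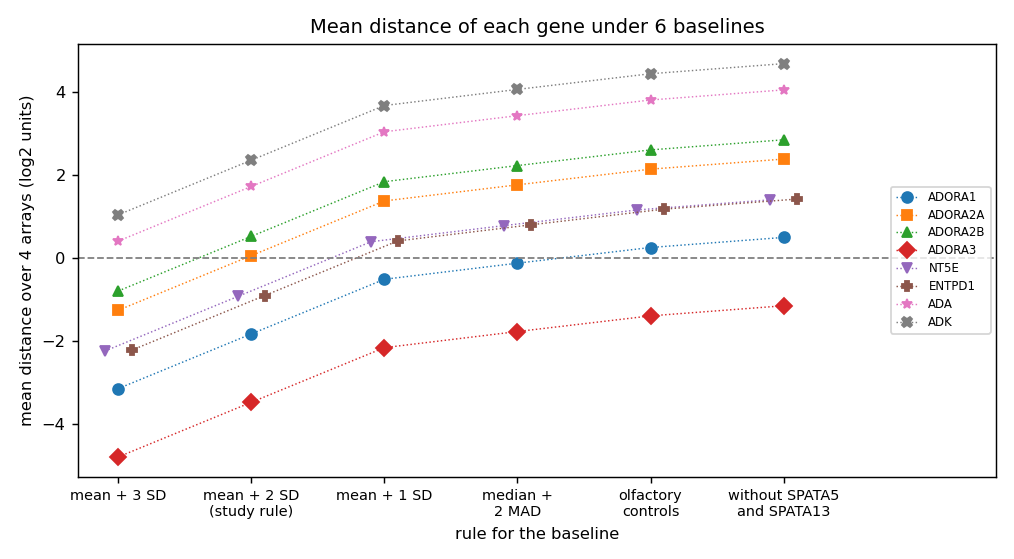
Mean distance over the 4 arrays (y axis, log2 units) of each gene under 6 rules for the baseline (x axis, from the highest to the lowest mean baseline), where 0 is the baseline; the dotted lines only join values of 1 gene, and NT5E and ENTPD1 are shifted sideways because they overlap. ADA and ADK stay above 0 and ADORA3 below 0 under all 6, and the other genes cross 0.

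The promoters of ADORA2B, ADORA3 and NT5E are shown as examples. ADORA2B was detected by the study's rule without passing the limma test. ADORA3 lay at the level of the olfactory receptor genes, and NT5E lay above their median but was not detected. The sequences are the 250 bases before the annotated start in RefSeq on GRCh38.p14 with no base after it, a later build than the HG18 catalogue behind the array. Capitals mark each CG dinucleotide, which reads the same on both strands.
ADORA2B, chr17:15944880-15945129, plus strand: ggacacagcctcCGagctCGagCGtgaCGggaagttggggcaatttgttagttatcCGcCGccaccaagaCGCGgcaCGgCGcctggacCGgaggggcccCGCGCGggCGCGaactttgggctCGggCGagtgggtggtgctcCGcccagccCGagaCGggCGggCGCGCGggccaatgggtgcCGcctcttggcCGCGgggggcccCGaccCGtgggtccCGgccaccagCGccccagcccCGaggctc
ADORA3, chr1:111503634-111503883, minus strand: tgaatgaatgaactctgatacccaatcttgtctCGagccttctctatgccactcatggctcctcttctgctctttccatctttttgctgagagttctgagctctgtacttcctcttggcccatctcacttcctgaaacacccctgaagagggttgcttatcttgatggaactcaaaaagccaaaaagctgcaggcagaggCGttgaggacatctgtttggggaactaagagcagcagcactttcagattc
NT5E, chr6:85449833-85450082, plus strand: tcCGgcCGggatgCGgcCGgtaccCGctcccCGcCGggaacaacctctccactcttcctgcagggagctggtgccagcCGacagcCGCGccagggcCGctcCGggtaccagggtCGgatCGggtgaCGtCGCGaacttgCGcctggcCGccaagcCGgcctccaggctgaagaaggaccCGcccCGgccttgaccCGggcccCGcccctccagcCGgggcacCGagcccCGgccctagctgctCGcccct

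The ADORA2B window held 33 CG dinucleotides, as many as or more than which 8.15% of 35116 promoter windows, cut in the same way, hold. The NT5E window held 28 (15.9% of windows hold as many), the ADA window 41 (1.73%), the ADORA1 window 12 (48.5%) and the ADORA3 window 2 (85.3%). The median over all windows was 11. The table used lists 2 windows for ADK, with 13 and 32, and 5 for ENTPD1, with 0 to 21. No window was available for ADORA2A.

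Other genes listed for adenosine turnover, transport and signalling, with purine salvage and nucleotide enzymes among them, were then set against the same baseline. Of 53 listed, 51 were matched and 27 (52.9%) were detected, close to the 52.7% of all named genes. On every array 25 of the 51 were above the baseline, against 45.0% of all named genes. The limma test passed 25 of the 51, against 45.9% of all named genes. Each list was small, and none was tested against the array as a whole.

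Of 8 further genes for the extracellular breakdown of nucleotides, 1 was detected (12.5%, against 52.7% of all named genes). This was ENPP1, which splits ATP to AMP and pyrophosphate, at 3.06 ± 0.46 log2 units (SD, n = 4), between 2.66 and 3.65 on every array. The other 7 were ENTPD2, ENTPD3, ENTPD8, ENPP3, ALPL, CD38 and ACP3, with mean distances from -3.31 to -1.52, all below the baseline on every array. Of the equilibrative and concentrative nucleoside transporters 1 of 6 was detected (16.7%, against 52.7% of all named genes). This was the mainly lysosomal and mitochondrial carrier SLC29A3, at 1.84 ± 0.45 log2 units (SD, n = 4). SLC29A3 no longer passed the limma test with a baseline of 3 SD. SLC29A2, the plasma membrane carrier ENT2, was above the baseline on 3 of 4 arrays, but its mean was -0.10 ± 0.75 (SD, n = 4) through -1.22 on replicate 3. The concentrative carriers SLC28A1, SLC28A2 and SLC28A3 had mean distances from -3.50 to -2.85. DPP4, to which ADA binds at the cell surface, stood at -0.42 ± 0.71 log2 units (SD, n = 4). ADA2 and ADAL were not matched to a named target and were not analysed here.

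Inside the cell, 9 of 13 genes of the nucleotidase, AMP deaminase and S-adenosylhomocysteine hydrolase families were detected (69.2%, against 52.7% of all named genes). AHCY, which releases adenosine from S-adenosylhomocysteine, stood at 4.57 ± 0.54 log2 units, and AMPD2, an AMP deaminase, at 3.01 ± 0.30 (SD, n = 4 for each). The nucleotidase NT5C2, which prefers IMP and GMP, stood at 2.96 ± 0.64 (SD, n = 4). Some of the detected genes are not known for work on adenosine: NT5C3A prefers pyrimidine nucleotides, NT5C3B methylated guanosine monophosphate, and AHCYL1 regulates calcium release. The count is therefore not one of genes that form adenosine. The cytosolic nucleotidase genes NT5C1A and NT5C1B, which act on AMP, stood at -2.96 ± 0.09 and -3.09 ± 0.42 log2 units (SD, n = 4 for each), below the baseline on every array. NT5M, at 0.40 ± 0.47 (SD, n = 4), was above the baseline on 3 of 4 arrays but did not pass the test (limma adjusted p = 0.26).

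All 4 genes of purine salvage were above the baseline on all 4 arrays, as were 45.0% of all named genes. They were HPRT1 at 4.02 ± 0.66, APRT at 3.55 ± 0.66, PNP at 3.54 ± 0.69 and MTAP at 1.80 ± 0.68 log2 units (SD, n = 4 for each). With a baseline of 3 SD MTAP no longer passed the limma test. PNP acts after ADA, since it splits inosine to hypoxanthine. Of the adenylate kinases, which pass phosphate between AMP and ATP, 6 of 9 were detected (66.7%, against 52.7% of all named genes). Among them AK4 stood at 3.68 ± 0.76 log2 units (SD, n = 4). AK1 was detected at 0.58 ± 0.69 (SD, n = 4), within its spread (limma adjusted p = 0.106).

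Of the G alpha subunits through which adenosine receptors act, 6 of 10 were detected. The Gs class genes GNAS and GNAL stood at 5.03 ± 0.73 and 3.06 ± 0.87 log2 units (SD, n = 4 for each). The value of GNAS rested on its brightest probes, since it was 2.73 with the median of the log2 probe values and 3.00 without the highest probe. The Gi genes GNAI2 and GNAI3 stood at 3.77 ± 0.54 and 1.46 ± 0.56 (SD, n = 4 for each). GNAI3 no longer passed the limma test with a baseline of 3 SD. GNAI1 lay on the baseline at -0.02 ± 0.92 and GNAO1 under it at -1.83 ± 0.45 (SD, n = 4 for each). The Gq class genes GNAQ and GNA11 stood at 2.45 ± 0.76 and 3.08 ± 0.60 (SD, n = 4 for each).

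**Figure D5:**
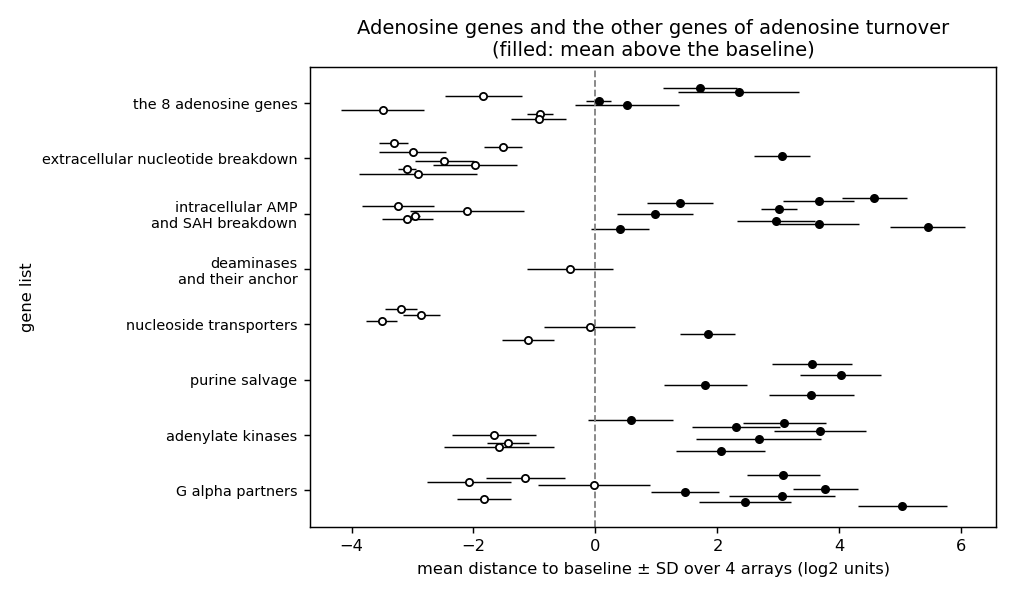
Mean distance to the baseline with its SD over the 4 arrays (x axis, log2 units) for the 8 adenosine genes and for 7 lists of related genes (y axis, 1 point per gene, filled where the mean is above 0). Extracellular breakdown and transporters each have 1 filled point, and all 4 genes of purine salvage are filled. Among all named genes 52.7% had a mean above 0.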

How the data were processed

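The authors deposited log2 intensity values for 71998 probes on each of 4 arrays. Per the study's methods, Cy3-labelled cDNA was hybridised in single colour to NimbleGen HG18 arrays, and the submitters' processing notes name RMA. The sorted values of replicates 1 and 2 differed by no more than 0.0012 log2 units for nearly all probes. For replicates 3 and 4 no such gap was computed, and the alternative with blocks took them as the other block. No raw intensities were used, so background and saturation were not examined. The number of arrays limits the precision.

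Accessions were matched without versions to RefSeq (GRCh38.p14), which named 19122 of 24000 targets. A target's level was log2 of the mean of its linear probe values, and targets of 1 gene were averaged. Of 11 control genes of the study, 10 were matched. Distances were tested against 0, one-sided, with limma 3.58.1 in R 4.3.3 over 17214 genes (Benjamini-Hochberg adjustment, threshold 0.05), after a check on simulated data. In the main fit the prior degrees of freedom were infinite, so every gene took a standard error of 0.351. A baseline moves all genes of an array together, and its differences between arrays entered the spread of the distances. Over all named genes the median SD was 0.63 log2 units for distances and 0.42 for levels. The uncertainty of each baseline from its few control genes did not enter. With 4 arrays the smallest p of an exact one-sided sign-flip test is 0.0625.

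The genes, lists and tests were chosen with earlier results of these data known. By rule, the matched genes, the detected genes of the related lists and genes that set the baseline were named with values, and undetected genes of those lists given values were chosen after these had been seen. Alternatives varied the controls, baseline height, probe and target summary, normalization, limma prior and block, and arrays.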

Additional observations from a re-analysis of the deposited data

Results flagged for a closer look

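Of 35 genes examined (the 8 adenosine genes and the 27 detected genes of the related lists), 3 had a single array set apart in distance, in that its gap to the nearest array, divided by the whole range, passed Dixon's critical value for 4 samples. Chance alone marks about 1 in 20. In each of them it was replicate 1, which had the lowest baseline (9.47 log2 units, against 9.94 to 10.69), and the part of the baseline in this was not tested.

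For ADORA2A the ratio was 0.844, with a distance of 0.35 on replicate 1 while replicates 2, 3 and 4 ranged from -0.08 to -0.01. Its level before subtraction was 9.82 on replicate 1 and 9.86 on replicate 2. For ADORA3 the ratio was 0.89, with a distance of -2.47 on replicate 1 while the other arrays ranged from -3.92 to -3.76. For GNAI2 the ratio was 0.83, with a distance of 4.56 on replicate 1 while the other arrays ranged from 3.40 to 3.60.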

How the results depend on the processing

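No paired analysis was possible because the design holds 1 group. Of the count results, 44 alternative values stayed within 1.5 times the reported count and 11 did not. The number of detected adenosine genes, 4, became 2 with a baseline of 3 SD and 2 where all 4 arrays had to lie above it, and 7 without SPATA5 and SPATA13 and likewise 7 with olfactory controls. The number passing limma, 2, became 1 with 3 SD, with the median of log2 probe values and without the highest probe, 4 with 1 SD, and 6 with olfactory controls, without SPATA5 and SPATA13, and with the median and MAD. These counts moved with those of the whole array. Of all named genes 39.1% were detected with 3 SD and 74.0% without SPATA5 and SPATA13. The limma test passed 28.6% with 3 SD, 58.9% with 1 SD, 62.3% with the median and MAD, 68.6% without SPATA5 and SPATA13, and 42.7% both with the median of log2 probe values and without the highest probe.

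Among single genes 651 values kept their direction and, where a test was run, their side of the threshold. Another 18 gained and 8 lost the test, and 23 changed sign. For pairs of replicates alone no test was run. There a value counted as kept if its sign held and it moved by less than the gene's SD between arrays. The lost calls were those of ADA with 3 SD, with the median of log2 probe values and without the highest probe, and, with 3 SD, those of SLC29A3 at 0.52, MTAP at 0.48, GNAI3 at 0.14, AHCYL2 at 0.07 and AK9 at 0.73 (limma adjusted p = 0.262, 0.309, 0.944, 1.0 and 0.0912). With 3 SD, ADORA2A stood at -1.27, ADORA2B at -0.80, NT5C at -0.33, NT5M at -0.92 and AK1 at -0.74. ADORA2A stood at -0.17 with the mean of log2 probe values, -0.12 without the highest probe, -0.0365 on replicates 3 and 4 alone and -0.0436 on replicates 2 and 4 alone, and with 1 replicate left out it ranged from -0.0501 (without replicate 1) to 0.0936 (without replicate 2). ADORA2B stood at -0.15 on replicates 1 and 3 alone. AK1 stood at -0.0369 with the median of probes and -0.13 without the highest probe. ADORA1 stood at 0.25 with olfactory controls and 0.49 without SPATA5 and SPATA13. NT5E and ENTPD1 stood at 0.39 and 0.40 with 1 SD, 1.15 and 1.17 with olfactory controls, 1.40 and 1.41 without SPATA5 and SPATA13, and 0.77 and 0.79 with the median and MAD. With 1 SD, and without SPATA5 and SPATA13, the baseline was lower by construction. With olfactory controls and with the median and MAD it came out lower, at means of 8.02 and 8.40 against 10.10 log2 units. For the other changes the cause was not tested.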
